A study of Ovis aries with 10 samples.

Results

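USP3, MORC3, GFM1, AIDA and SNX13 are 5 sheep genes whose transcripts gave 32 of the 8721 circular RNAs (circRNAs) listed in these muscle libraries, and in each of the 5 genes 1 leading circRNA held most of the reads. The genes were taken by their exact names in the deposited table, and they had been proposed because their leading circRNAs were abundant and varied little between libraries. Level, share of the host's reads, ratio to non-junction reads and spread are therefore given as descriptions without a test. The 32 circRNAs come from 5 of 3436 host genes and held 3.44% of all junction reads, which are reads across the joint that closes the circle.

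The libraries came from small-tailed Han sheep, all of them labelled as longissimus dorsi, a back muscle. Of the 10 libraries, 5 were from ovariectomized animals (OR-STH) and 5 from animals after sham surgery (STH), set against each other to ask how loss of ovarian estrogen affects muscle in females. The labels give neither age nor time after surgery, they also call the samples primary myoblasts and describe a culture with estradiol, and no sample carries an estradiol dose. Whether each library is an animal of its own is not stated either, and p-values here rest on the spread among libraries, which may be technical. The ovariectomized libraries held 39045 to 67061 junction reads each and the sham libraries 35731 to 49887. Of 22 muscle fiber genes 16 hosted a circRNA, and of 11 genes of myoblasts and proliferation only DES did, a gene that is also on the fiber list, with 3 reads. A hosted circRNA does not measure the expression of its gene, and many fiber genes are long, so this does not settle the cell type.

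A circRNA forms when the splicing machinery joins the end of a downstream exon to the start of an upstream one. Its ends are closed, so exonucleases that trim linear RNA do not attack it, and abundant circRNAs are often long-lived. The 5 host genes belong to different pathways. USP3 encodes a deubiquitinase that in human cells removes ubiquitin from histones, and MORC3 encodes a nuclear ATPase that binds histone tails and is found at PML bodies. GFM1 encodes the mitochondrial elongation factor that moves the ribosome along mitochondrial messages. AIDA encodes an axin-binding protein that in zebrafish counters JNK activation by axin, and SNX13 encodes a sorting nexin of endosomes with an RGS domain.

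All 5 leading circRNAs were labelled exonic and were listed in all 10 libraries. Coordinates are those of the deposited table, with starts counted from 1 and with chromosome numbers taken through the host genes. The genome build is not given in the sources used here. The USP3 circRNA, novel_circ_0008244, lies on chromosome 7 from 44675430 to 44679512 on the minus strand and joins 4 exons of 132, 79, 123 and 61 bp. The MORC3 circRNA, novel_circ_0001264, lies on chromosome 1 from 269239726 to 269243629 on the plus strand and joins 3 exons of 155, 148 and 129 bp. The GFM1 circRNA, novel_circ_0000866, also lies on chromosome 1, from 229629332 to 229631733 on the minus strand, with 3 exons of 205, 133 and 153 bp. In AIDA, novel_circ_0011224 on chromosome 12 from 25417351 to 25432285, minus strand, joins 6 exons of 54 to 107 bp. In SNX13, novel_circ_0006036 on chromosome 4 from 27368692 to 27375158, minus strand, joins 4 exons of 100 to 122 bp.

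The 5 circles were alike in spliced length and unlike in genomic extent, neither of which the choice of genes used. Spliced lengths were 395 bp for USP3, 428 bp for AIDA, 432 bp for MORC3, 438 bp for SNX13 and 491 bp for GFM1, against a median of 382 bp over the 701 exonic circRNAs tested. Genomic spans ran from 2402 bp in GFM1 to 14935 bp in AIDA, on both sides of the median of 6939 bp. The median number of exons was 3, which MORC3 and GFM1 share, while AIDA had 6.

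Levels are normalized junction reads, the junction reads of a library divided by its scaled size relative to the geometric mean of the 10. A circRNA has a single junction, so its reads need no division by length. The order of the means over 10 libraries was USP3 with 318 ± 49.4, GFM1 with 294 ± 85.6, MORC3 with 282 ± 55.9, SNX13 with 249 ± 52.8 and AIDA with 231 ± 29.0 normalized junction reads (SD, n = 10). By raw reads they ranked 5, 6, 9, 10 and 11 among the 8721 circRNAs. No neighbours in this order differed beyond their spread. USP3 exceeded GFM1 in 6 of 10 libraries, GFM1 exceeded MORC3 in 5, MORC3 exceeded SNX13 in 8 and SNX13 exceeded AIDA in 6. The largest of these paired differences, MORC3 over SNX13, was 32.5 ± 62.6 normalized junction reads (SD, n = 10).

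With the main scaling, by trimmed means, the AIDA circRNA was the steadiest of the 5. It had 281, 193, 241, 213 and 259 normalized junction reads in ovariectomized replicates 1 to 5, against 245, 188, 217, 233 and 244 in sham replicates 1 to 5. The groups overlapped over most of their range, and the highest of the 10 libraries was 1.50 times the lowest. Its coefficient of variation, the SD as a percent of the mean, was 12.5% over the 10 libraries, where counting error alone would give 6.63%. With libraries scaled by their totals alone it was 15.2%, and the USP3 circRNA was then steadier, at 11.6%.

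The USP3 circRNA had 292, 284, 277, 289.6 and 268 normalized junction reads in ovariectomized replicates 1 to 5, against 385, 393, 385, 311 and 299 in sham replicates 1 to 5. Every ovariectomized library lay below every sham library, with 292.4 in the highest ovariectomized and 298.9 in the lowest sham library. The ovariectomized libraries spread over a coefficient of variation (SD as a percent of the mean) of 3.55% and the sham libraries over 12.9%. Counting error alone would give 5.65%, more than the ovariectomized spread, and the gap between the groups is smaller than that error. The sham group split into replicates 1 to 3 near the top and replicates 4 and 5 close to the ovariectomized range.

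The MORC3 circRNA had 322, 249, 246, 254 and 213 normalized junction reads in ovariectomized replicates 1 to 5, against 342, 362, 349, 228 and 248 in sham replicates 1 to 5. Its groups overlapped, and sham replicates 1 to 3 again stood above replicates 4 and 5. USP3 and MORC3 moved together over the 10 libraries, with a Pearson correlation of 0.863, while the correlation of USP3 with AIDA was -0.378. These are descriptions over libraries that share their scaling, with no p.

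The SNX13 circRNA had 306, 289.9, 211, 317 and 155 normalized junction reads in ovariectomized replicates 1 to 5, against 305, 225, 227, 218 and 236 in sham replicates 1 to 5. Ovariectomized replicate 5 was lowest and sham replicate 1 stood apart from its group, and the sham range lay within that of the ovariectomized libraries. Its highest library was 2.05 times its lowest.

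The GFM1 circRNA went against the description as steady. It had 432, 413, 175, 374 and 304 normalized junction reads in ovariectomized replicates 1 to 5, against 268, 262, 236, 264 and 215 in sham replicates 1 to 5. Of the ovariectomized libraries, 4 lay above all sham libraries and replicate 3 lay below all of them. The coefficient of variation was 30.6% among ovariectomized and 9.16% among sham libraries, and the highest of the 10 libraries was 2.46 times the lowest.

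**Figure D1:**
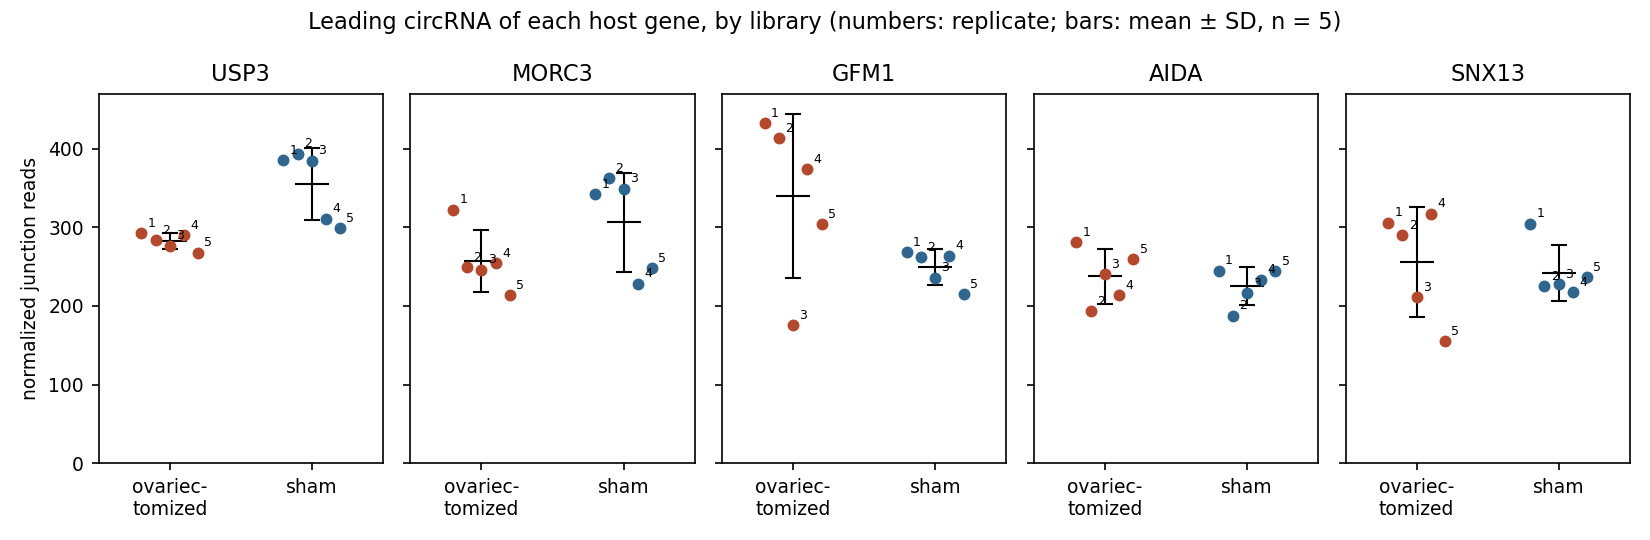
Normalized junction reads of the leading circRNA of each host, ovariectomized left and sham right, 1 point per library with its replicate number and black bars for the mean ± SD (n = 5). The USP3 groups do not overlap, with this scaling (ovariectomized 268 to 292, sham 299 to 393), and ovariectomized replicate 3 of GFM1 lies at 175, below the sham libraries.

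Set against the 738 circRNAs abundant enough for a test, 4 of the 5 were steady, SNX13 narrowly for its abundance, and GFM1 was not. The median coefficient of variation of the tested circRNAs was 42.9%. The AIDA circRNA had the second smallest of all 738 and USP3, at 15.5%, the fifth smallest. MORC3 at 19.8% ranked 27, SNX13 at 21.2% ranked 41 and GFM1 at 29.1% ranked 132. Spread falls with abundance, so the closer comparison is with the 11 tested circRNAs whose mean was at least that of AIDA. Among these AIDA, USP3, MORC3 and SNX13 had the 4 smallest coefficients, GFM1 ranked 9, and the median was 22.6%. The 11 and their median include the 5 leading circRNAs themselves. A UBE3A circRNA among the 11 was at 21.4%, next to SNX13. An ARHGAP10 circRNA just under the cut, with a mean of 213, was at 20.3%, below SNX13. All 5 lay above counting error, which would give 5.65% to 6.63%. These ranks are for the main scaling, restate what the genes were chosen on and carry no test.

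**Figure D2:**
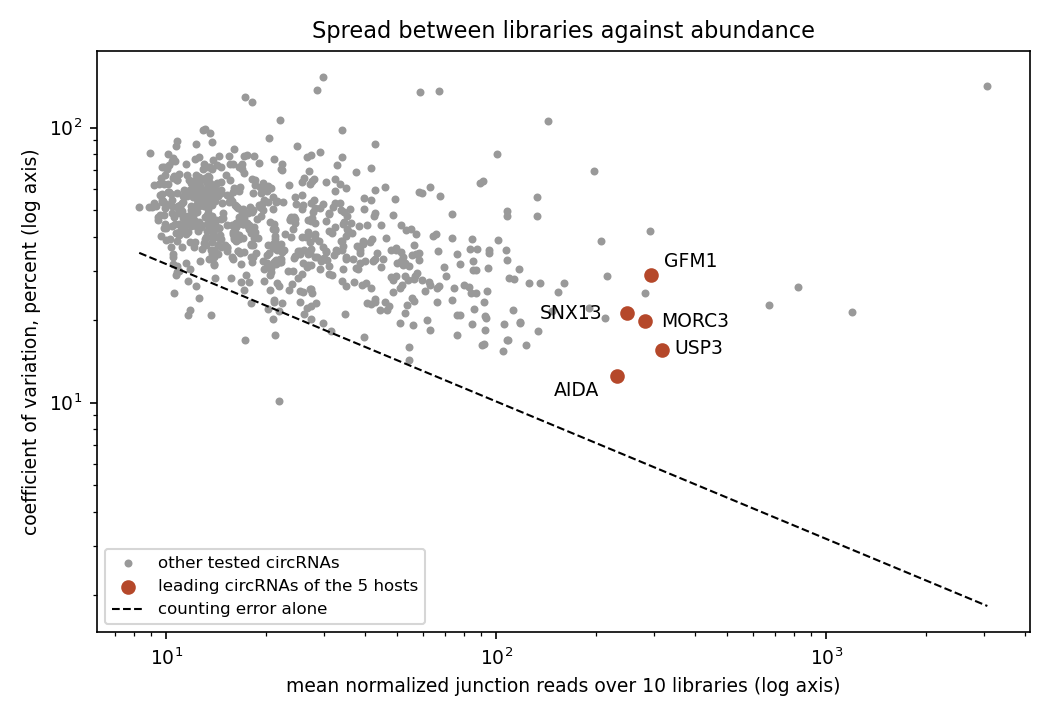
Coefficient of variation over 10 libraries against mean normalized junction reads, both on log axes, for the 738 tested circRNAs (grey) and the 5 leading circRNAs (red), with the spread that counting error alone gives (dashed). With this scaling the 5 lie between 231 and 318 reads, from 12.5% for AIDA to 29.1% for GFM1.

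In the limma voom fit over all tested circRNAs, none of the 5 leading circRNAs passed an adjusted p of 0.05 between ovariectomized and sham libraries, where 0% of the 738 tested passed. At an unadjusted limma p under 0.05, 1 of the 5 was lower in ovariectomized libraries, USP3 at 0.0461, and 0 were higher, where 4.47% of the 738 were lower and 1.22% higher. Nothing is read from that count, since the choice of genes used the same values. Log2 fold changes, ovariectomized over sham, are given as descriptions because the spread that chose the genes contains the difference between groups. They were -0.32 ± 0.15 (SE) for USP3, -0.24 ± 0.18 for MORC3, 0.39 ± 0.22 for GFM1, 0.07 ± 0.16 for AIDA and 0.02 ± 0.21 for SNX13. The median over all 738 was -0.04. In bulk samples such as these, fewer cells of a type and less RNA per cell cannot be told apart.

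USP3 averaged 282 ± 10.0 normalized junction reads in ovariectomized and 355 ± 45.7 in sham libraries (SD, n = 5 each), a description of values that chose the gene. Non-overlapping groups with the ovariectomized libraries lower occurred in 0.813% of the 738 tested circRNAs, 6 in all. With libraries scaled by their totals alone the USP3 groups overlapped, with 282 to 312 normalized junction reads after ovariectomy and 282 to 401 after sham surgery, and its log2 fold change was -0.16. That scaling moves the median of all circRNAs to 0.14, and relative to the median USP3 was at -0.30 under it and at -0.28 in the main scaling. The limma fit did not call it, with an adjusted p of 0.781. That p was 7.17e-09 with no filter beyond 1 read, where 30 of 8721 circRNAs passed, and neither p is read as a test of a gene chosen on these values.

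GFM1 averaged 339.6 ± 104 normalized junction reads in ovariectomized and 249 ± 22.8 in sham libraries (SD, n = 5 each). Leaving out ovariectomized replicate 3 gave GFM1 a log2 fold change of 0.62 in place of 0.39, with a limma adjusted p of 0.517 in place of 0.802. The other log2 fold changes stayed small whichever library was left out. They ran from -0.38 to -0.26 for USP3, -0.32 to -0.14 for MORC3, 0.03 to 0.17 for AIDA and -0.04 to 0.24 for SNX13. In the authors' deposited table, which divides sham by ovariectomized, the log2 fold changes were -0.47 for GFM1 with a p of 0.0564 and 0.30 for USP3 with a p of 0.112. Over the whole series, the authors' unadjusted p fell below 0.05 for 118 of 8721 circRNAs, and for 0 of the 32 from these hosts. With so small a share over the series, nothing is read from that 0.

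In all 5 hosts the leading circRNA far outnumbered the others, with 13873 of the 15322 junction reads of the 5 hosts. The leading share of the host's junction reads was 98.8% in GFM1 (95% exact Clopper-Pearson interval 98.4 to 99.2%), 93.1% in USP3 (92.2 to 93.9%), 88.1% in MORC3 (86.9 to 89.2%), 88.1% in SNX13 (86.8 to 89.2%) and 83.7% in AIDA (82.3 to 85.0%). Intervals cover counting error only. The median leading share over the 753 host genes with enough reads for a test was 75.2%, and 106 of them had a higher share than GFM1 and 291 a higher share than AIDA.

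The shares moved least between libraries in GFM1 and most in AIDA. GFM1 shares ran from 97.1% to 99.3% in ovariectomized libraries and from 98.6% to 100.0% in sham libraries. Over the 10 libraries the share ran from 87.3% to 95.9% in USP3, 81.1% to 92.8% in MORC3 and 82.7% to 92.5% in SNX13. AIDA shares were 84.5%, 79.8%, 80.6%, 80.1% and 92.5% in ovariectomized replicates 1 to 5, against 80.7%, 72.2%, 88.2%, 83.4% and 87.1% in sham replicates 1 to 5. The lowest AIDA share was in sham replicate 2 and the highest in ovariectomized replicate 5, and the groups overlapped.

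The 27 other circRNAs of these hosts held 1449 junction reads, and 15 of them shared 1 end with the leading circRNA of their host. Of these, 6 shared the upstream end, 9 shared the downstream end, and together they held 1020 of the reads. Only 5 of the 27 were listed in all 10 libraries and 8 were in a single library. In AIDA both other circRNAs began at the same upstream end and reached farther downstream. One, novel_circ_0011222, holds the 6 exons of the leading circle plus 1 more and had 335 reads. The other, novel_circ_0011220, holds 3 of those exons and had 128 reads.

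In USP3 the main alternative, novel_circ_0008242, kept the upstream end and reached 24840 bp farther downstream, to position 44650590, with 181 reads. It keeps 3 of the 4 exons of the leading circle and adds 2 others. In SNX13, novel_circ_0006024, with 152 reads from 27321812 to 27336566, shared no end with the leading circle and lay wholly downstream of it. Another SNX13 circRNA, novel_circ_0006038, shared the downstream end and began 5216 bp farther upstream, with 83 reads. In GFM1 the 3 others held 36 reads in all, 31 of them in novel_circ_0000863, which kept the upstream end and reached 5332 bp farther downstream.

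MORC3 showed a cluster of start points. Besides the leading circRNA, 4 others ended at 269243629 and began within 25 bp of its start. They began 24 bp upstream (novel_circ_0001261, 51 reads), 12 bp upstream (novel_circ_0001262, 122 reads), 16 bp downstream (novel_circ_0001265, 2 reads) and 25 bp downstream (novel_circ_0001266, 7 reads). The leading start held 2793 reads. A further MORC3 circRNA, novel_circ_0001267, with 179 reads in all 10 libraries, lay wholly downstream, from 269247038 to 269251979.

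**Figure D3:**
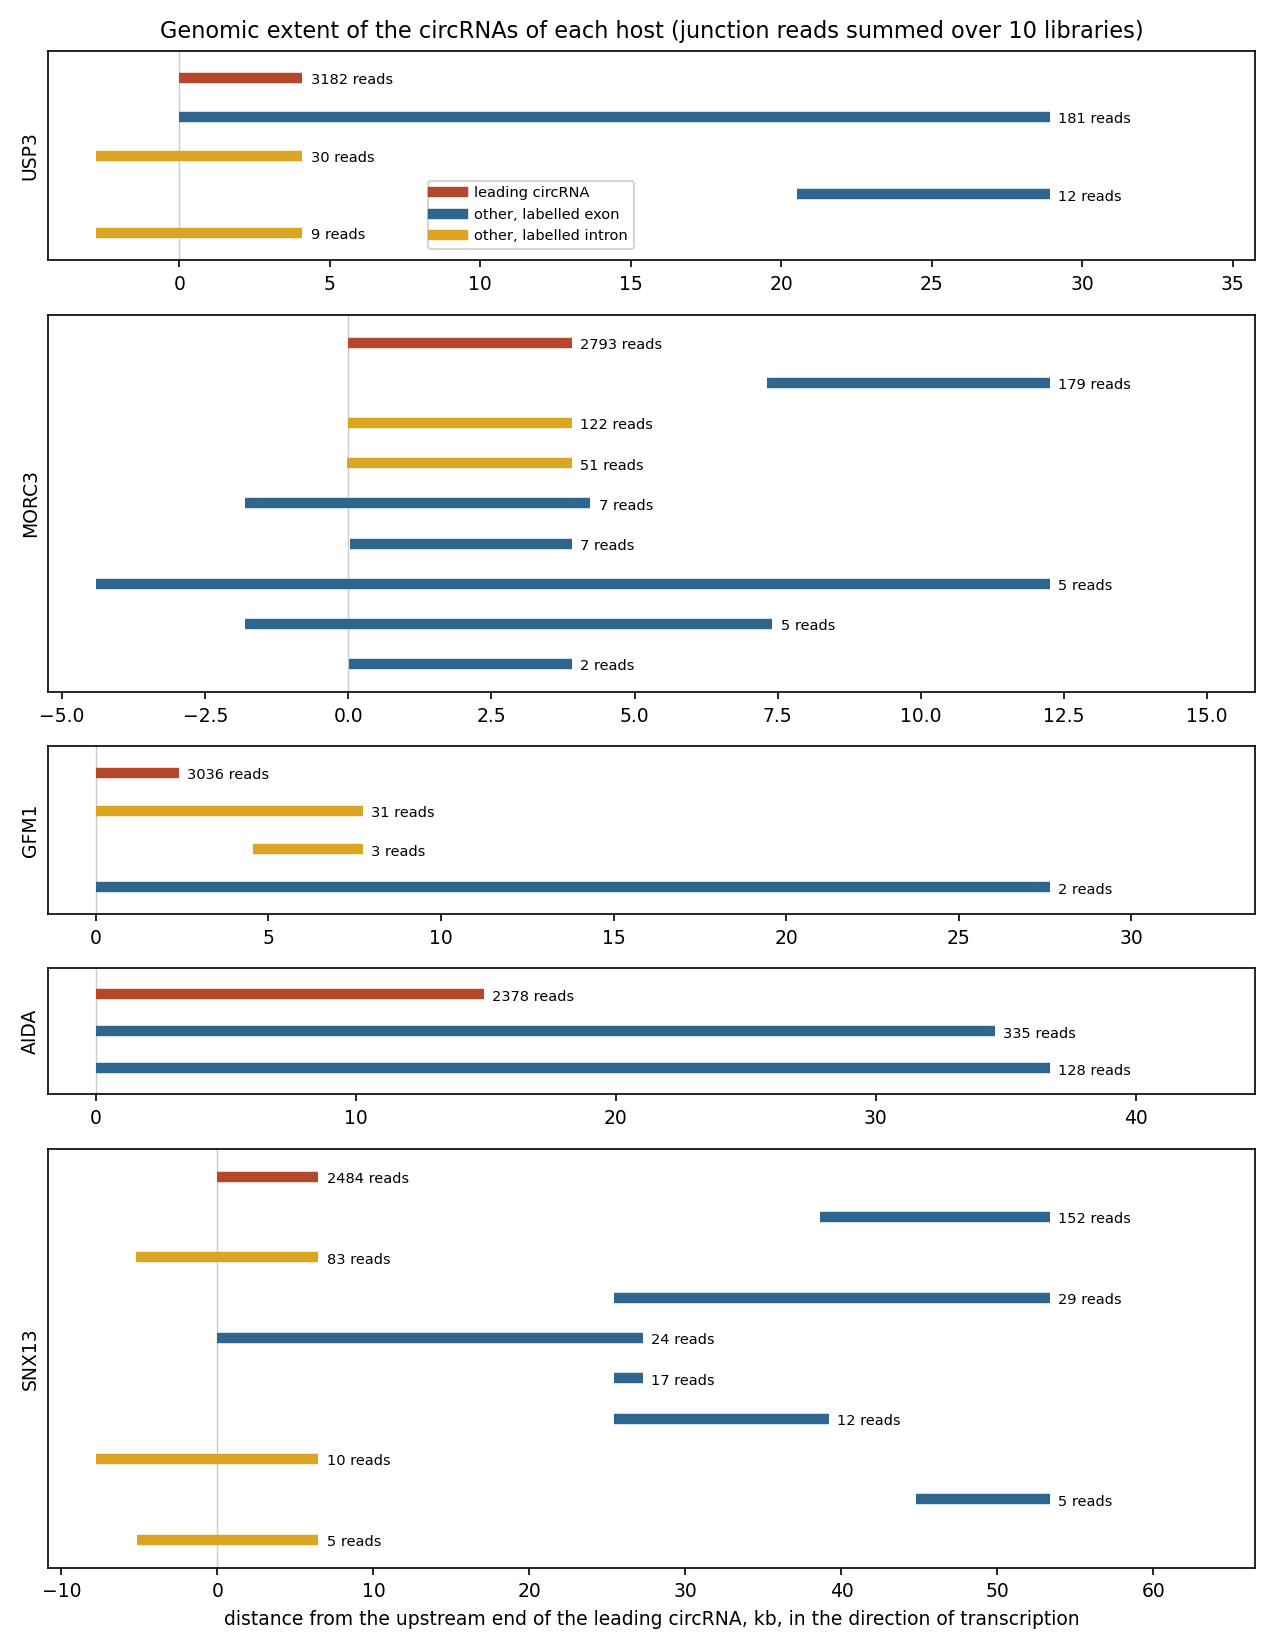
Genomic extent of the circRNAs of each host, in kb from the upstream end of the leading circRNA along the direction of transcription, with junction reads summed over 10 libraries. Red is the leading circRNA, blue others labelled exon, yellow others labelled intron; a single-exon USP3 circRNA with 3 reads, which starts 153118 bp upstream, is not drawn.

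The table's exon and intron labels did not separate the isoforms cleanly. Of the 32 circRNAs 9 were labelled intronic, with 344 reads and 21 listed segments. Of these segments 13 had exactly the coordinates of a segment labelled exon in another row, and 12 were exons of the leading circRNA of the same host. The MORC3 circRNA novel_circ_0001262, labelled intronic, holds 2 exons of the leading circle unchanged. Over all hosts, 203 of 547 circRNAs labelled intronic, 37.1%, had at least 1 segment that another row labels as an exon. For 8 of the 32 circRNAs the listed segments did not reach both ends, so the spliced length given for those is not that of a full circle.

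Reads of the other circRNAs, summed per host, and non-junction reads were compared between groups by exact permutation tests. Both enter the share and the ratio by which the genes were described, so these tests are not wholly independent of the choice. Of the 10 tests, 2 had an exact permutation p under 0.05, both with ovariectomized higher, 1 of 5 hosts for each measure. Over all circRNAs or hosts, the same exact test was under 0.05 with ovariectomized higher for 13.4% of 806 circRNAs in non-junction reads, and for 1.35% of 593 tested hosts in the reads of other circRNAs. With 5 hosts, a count of 1 is not set apart from these shares. For the other circRNAs that host was GFM1. Its other circRNAs had 6.2, 8.14, 5.28, 2.60 and 4.96 normalized junction reads in ovariectomized replicates 1 to 5, against 0, 3.61, 0, 0 and 3.03 in sham replicates 1 to 5. They averaged 5.44 ± 2.01 in ovariectomized and 1.33 ± 1.83 in sham libraries (SD, n = 5 each), with a two-sided exact permutation p of 0.0238. The reads are too few for the fit over all circRNAs, so no adjusted p goes with it. The largest of them, novel_circ_0000863, was listed in 5 ovariectomized and 2 sham libraries, with at most 6 reads in a library. Every listed circRNA has at least 2 reads, so a library without an entry may hold 1 read that is not shown.

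For the other 4 hosts the reads of the other circRNAs did not differ beyond the spread. In AIDA they averaged 46.5 ± 14.6 normalized junction reads in ovariectomized and 48.5 ± 17.3 in sham libraries (SD, n = 5 each, exact permutation p = 0.825). The exact permutation p was 0.746 for USP3, 0.77 for MORC3 and 0.579 for SNX13. Of the 27 other circRNAs 6 passed the filter of the limma fit and 0 passed its threshold. In AIDA, novel_circ_0011222 was at -0.10 ± 0.33 (SE) on the log2 scale, and in USP3 novel_circ_0008242 was at -0.43 ± 0.34, with limma adjusted p-values of 0.941 and 0.847. The MORC3 circRNA novel_circ_0001262, whose start lies 12 bp before that of the leading circle, had 79 reads in ovariectomized and 43 in sham libraries, none of them in sham replicate 4. In limma it was at 1.51 ± 1.00 (SE) on the log2 scale, while the other tested MORC3 isoform, novel_circ_0001267, was at -0.84 ± 0.54, each with an adjusted p of 0.836. The remaining tested ones were at -0.07 ± 0.61 for novel_circ_0006024 of SNX13 and 0.01 ± 0.48 for novel_circ_0011220 of AIDA.

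No source used here defines the non-junction reads. They are taken to be reads touching either end of the circle without spanning the closing joint, so that linear RNA of the host would add to them. The 5 leading circRNAs had few of them for each junction read. Summed over the 10 libraries the ratio of non-junction to junction reads was 0.319 for USP3, 0.746 for AIDA, 0.837 for SNX13, 1.01 for GFM1 and 2.34 for MORC3. The median over the 738 tested circRNAs was 6.41. For USP3 only 4 tested circRNAs had a lower ratio, and for MORC3 161 did. In USP3 the ratio stayed between 0.220 and 0.471 in every library.

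The group means of the ratio were 0.803 ± 0.280 in ovariectomized and 1.50 ± 0.228 in sham libraries for GFM1, and 2.68 ± 0.319 in ovariectomized and 2.06 ± 0.443 in sham libraries for MORC3 (SD, n = 5 each). GFM1 had 0.560, 0.810, 1.28, 0.71 and 0.658 non-junction reads per junction read in ovariectomized replicates 1 to 5, against 1.73, 1.62, 1.62, 1.16 and 1.39 in sham replicates 1 to 5. The groups overlapped only through ovariectomized replicate 3 and sham replicate 4. MORC3 had 2.73, 2.95, 2.88, 2.68 and 2.14 in ovariectomized replicates 1 to 5, against 1.68, 1.78, 1.75, 2.61 and 2.46 in sham replicates 1 to 5. Its overlap came from ovariectomized replicate 5 and sham replicates 4 and 5.

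The other host with an exact permutation p under 0.05 was MORC3, in non-junction reads. The counts were 852, 722, 672, 784 and 736 in ovariectomized replicates 1 to 5, against 441, 537, 567, 606 and 605 in sham replicates 1 to 5. Scaled to total non-junction reads they averaged 818 ± 143 in ovariectomized and 512 ± 69.5 in sham libraries (SD, n = 5 each), 1.60-fold higher. All 5 ovariectomized libraries lay above all 5 sham libraries. Relabelling 5 against 5 then always gives its smallest two-sided exact permutation p, 0.00794. These reads enter the ratio by which the genes were described, so this p is not independent support for a difference. Non-overlap with the ovariectomized libraries higher was found for 4.09% of the 806 circRNAs listed in all libraries under this scaling, and for 1.49% when scaled by trimmed means, where MORC3 did not overlap either.

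Over all 806 circRNAs, limma did not call MORC3. It gave a log2 fold change in non-junction reads of 0.50 ± 0.14 (SE) and an adjusted p of 0.119, and 0.248% of the 806 passed, 2 in all. With total non-junction reads as the scale, as in the exact test, 18 passed and MORC3 was at 0.67 with a limma adjusted p of 0.0912. Its unadjusted limma p was 0.00278, and 7.07% of the 806 were higher with an unadjusted p under 0.05. The median over the 806 was 0.03, and scaling by total non-junction reads moved it to 0.19. Scaled by junction reads the median was -0.33, 1 passed and MORC3 was at 0.17, with a limma adjusted p of 0.644. The size of the MORC3 difference thus depends on the scaling, and its sign did not change under these 3.

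Values at a second place in MORC3, chosen after they were seen, were less clear. At novel_circ_0001267, downstream of the leading circle, scaled non-junction reads were 301, 269, 221, 204 and 103 in ovariectomized replicates 1 to 5, against 135, 148, 164, 127 and 156 in sham replicates 1 to 5. Ovariectomized replicates 1 to 4 lay above all sham libraries and replicate 5 below all of them. In limma this place was at 0.34 ± 0.18 (SE) on the log2 scale, adjusted p 0.43.

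For the remaining 4 hosts non-junction reads did not differ between groups beyond the spread. Scaled non-junction reads averaged 304 ± 76.1 in ovariectomized and 313 ± 47.2 in sham libraries for GFM1 (SD, n = 5 each, exact permutation p = 0.865). For USP3 they averaged 110.5 ± 16.7 in ovariectomized and 92.8 ± 35.0 in sham libraries (SD, n = 5 each, exact permutation p = 0.349). Without sham replicate 2, the highest sham library, the USP3 difference grew to 31.7 and the exact permutation p was 0.0397. That was the lowest of 10 such omissions and the 1 under 0.05, with exact permutation p-values up to 0.595. Under junction-read scaling the USP3 difference was -17.3. The exact permutation p was 0.254 for AIDA and 0.524 for SNX13. With junction-read scaling the GFM1 non-junction reads were lower in ovariectomized libraries by 122, with an exact permutation p of 0.0238.

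**Figure D4:**
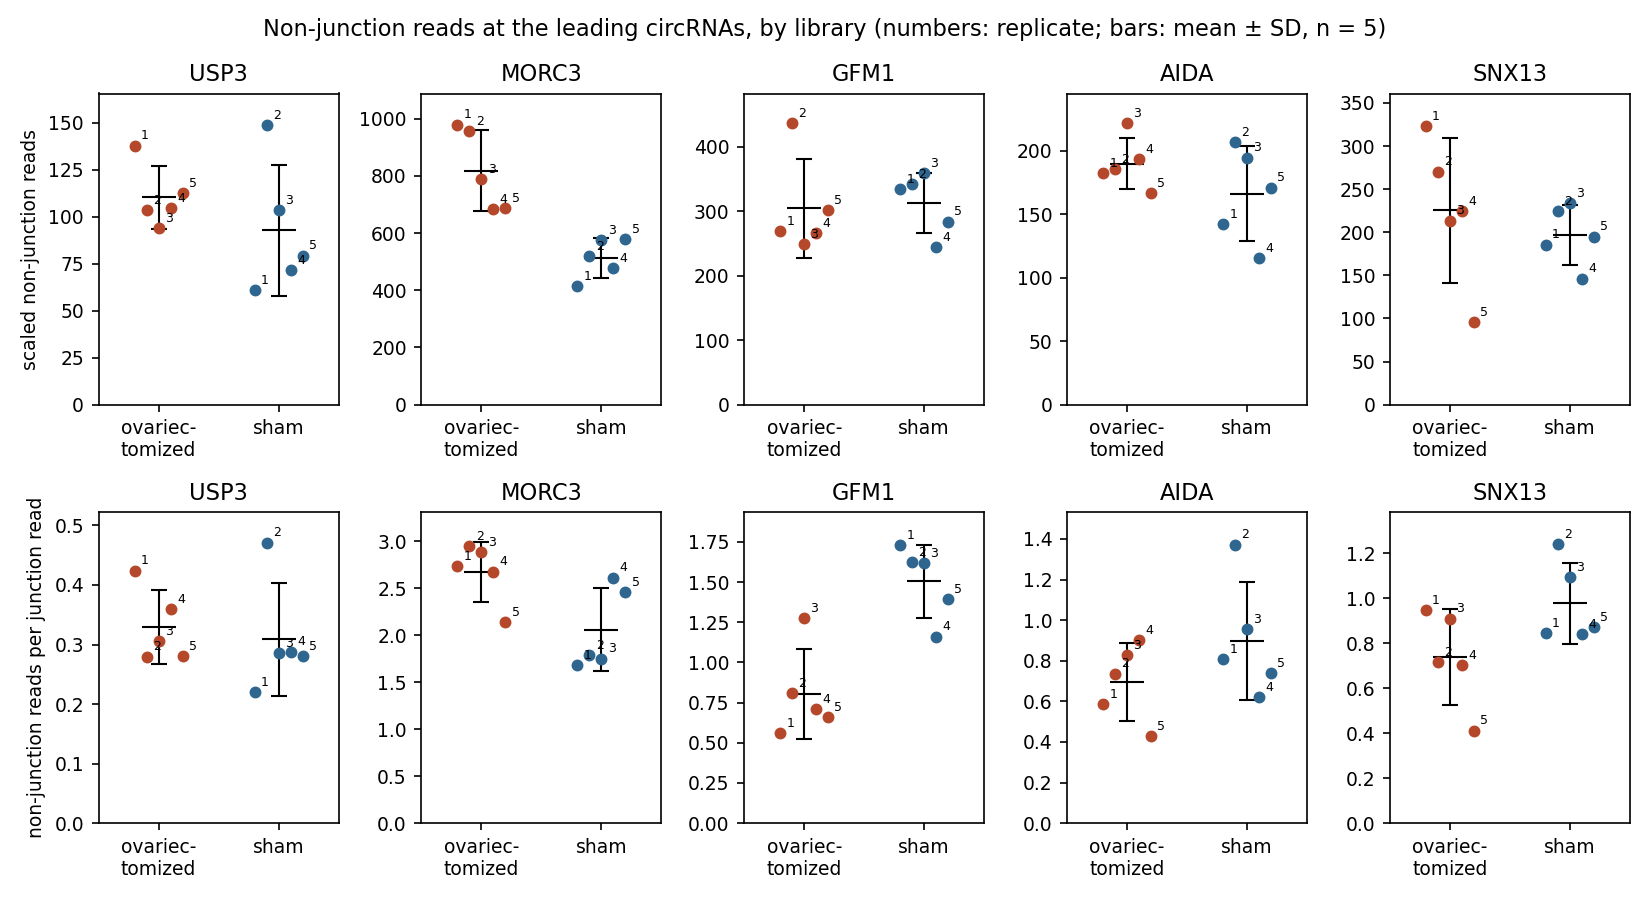
Upper row, non-junction reads of each leading circRNA scaled to total non-junction reads; lower row, non-junction reads per junction read; ovariectomized left, sham right, 1 point per library with its replicate number and bars for the mean ± SD (n = 5). MORC3 is the 1 host of the 5 whose scaled non-junction reads do not overlap, with means of 818 in ovariectomized and 512 in sham libraries.

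The circRNAs whose pattern over the 10 libraries was most like that of each leading circRNA mostly had far fewer reads, apart from USP3 and MORC3, which were among the closest to each other. Likeness is Pearson's r of log2(normalized junction reads + 1) over 10 libraries, the highest of 738 circRNAs, and is a description with no p. For USP3 the 3 most alike were circRNAs of CEP350 (0.896), PPIL4 (0.847) and MORC3 (0.846). For MORC3 they were those of CEP128 (0.885), USP3 (0.846) and KDM6A (0.802). GFM1 was most like RIC3 (0.928), AGTPBP1 (0.764) and CACNA2D1 (0.734). AIDA was most like ADCY9 (0.914), RNGTT (0.763) and TEX9 (0.751), and SNX13 was most like PBRM1 (0.874), MAPK8 (0.872) and LOC101109345 (0.831). The circRNAs of RIC3, CEP128, PPIL4 and ADCY9 varied close to counting error alone, so their patterns may be largely counting noise. Their coefficients of variation were 23.0%, 23.2%, 27.7% and 15.9%, where counting error would give 21.3%, 21.9%, 29.5% and 13.7%. The others named varied further beyond it.

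Genes related to the 5 hosts by family or pathway gave no host that passed, with reads summed per gene, where 0% of all 753 tested hosts passed in limma. At an unadjusted p under 0.05, 4.38% of the 753 were lower and 1.59% higher, and none of the 5 hosts was among them. The 5 hosts themselves were at -0.28 ± 0.16 (SE) for USP3, -0.17 ± 0.19 for MORC3, 0.43 ± 0.21 for GFM1, 0.07 ± 0.17 for AIDA and 0.03 ± 0.20 for SNX13 on the log2 scale, ovariectomized over sham. Of 54 deubiquitinases and histone ubiquitination genes, 24 were hosts and 8 had enough reads for a test, 4 with a higher and 4 with a lower estimate and a median of 0.05. The tested host with most reads, USP13, a relative of USP3, was at 0.10 ± 0.20, and USP25 was at -0.44 ± 0.24. The median over all tested hosts was -0.02.

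The MORC family and PML body list held 13 genes, of which 5 were hosts and 3 of these had enough reads for a test, 1 with a higher and 2 with a lower estimate and a median of -0.39. ATRX, which encodes a chromatin remodeler found at PML bodies, was at 0.34 ± 0.24. SMCHD1, which encodes a chromatin protein with an ATPase domain like that of MORC proteins, was at -0.39 ± 0.25. SENP6, which encodes a SUMO protease, was at -1.05 ± 1.92, where the standard error exceeds the estimate. Of 42 mitochondrial translation genes, 13 were hosts and 4 had enough reads for a test. All 4 estimates were negative, with a median of -0.35, but IARS2 was at -0.02 ± 0.34 and MRPL1 at -0.37 ± 0.40. NARS2, the mitochondrial asparagine tRNA synthetase gene, was at -1.01 ± 0.32 with a limma adjusted p of 0.697, and GFM2, which encodes a factor of mitochondrial ribosome recycling, was at -0.32 ± 0.31.

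Of 20 axin and JNK pathway genes, 9 were hosts and 4 could be tested, 1 with a higher and 3 with a lower estimate. TNKS2, which encodes a tankyrase that marks axin for degradation, was at -0.22 ± 0.23, and the JNK gene MAPK8 was at -0.17 ± 0.26. Of 34 sorting nexins and partners, 14 hosted a circRNA and 3 were tested, 2 with a higher and 1 with a lower estimate. SNX27, which encodes an endosome-to-membrane recycling adaptor, was at 0.08 ± 0.37, and SNX4 was at 0.90 ± 0.39 with a limma adjusted p of 0.76.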

How the data were processed

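The kit keeps the strand, per the labels' protocols. The submitters' processing notes name HISAT2, without a circRNA caller or a build. The deposited table packs whole-number junction and non-junction read counts into lists. The smallest listed junction count is 2, a library without an entry was entered as 0, and 10 sample names that belong to no sample of the series were not used. Of the 8721 circRNAs, 8425 had a host ID in the ARS-UI_Ramb_v3.0 gene table, used for chromosome numbers only. The authors deposited, per the file headers, group means of a normalized signal, a log2 fold change and a p-value, raw and adjusted. The signal means equal counts over median-of-ratios size factors within 2.84e-07.

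Counts were tested with limma voom (limma 3.58.1, R 4.3.3), with group as the only term, robust variances, trimmed means of M values over the tested circRNAs (trimming 30% of log ratios and 5% of mean abundances) and Benjamini-Hochberg adjustment at 0.05. A circRNA was tested with at least 10 scaled reads in 5 libraries and 15 in total, which 11 of the 32 met. A host gene was tested by the same filter on its summed reads. Non-junction reads were fitted likewise over the 806 circRNAs listed in all libraries, a fit added after the values were seen. Single values were tested with two-sided exact permutation over all relabellings of 5 against 5. The planned adjustment over these 10 tests is not given, because the genes were chosen with results known. The functions were tested on simulated data. No replicate pair agreed within sampling noise (lowest chi-square per degree of freedom 4.82). The genes and lists were chosen with earlier results of these data known. Named circRNAs are all of those with reads that matter to a comparison, the 3 most alike by correlation and, in each list, the 2 hosts with most reads, to which ATRX was added after its value was seen. Alternatives covered scaling, filters, limma trend with a pseudocount of 1, a replicate block, pooling of ratios and leaving out each library.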

Additional observations from a re-analysis of the deposited data

Results flagged for a closer look

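Of 50 groups of 5 values, 4 held a library far from the others, where chance alone flags about 1 in 20, or 2.5. The SNX13 leading circRNA had 305 normalized junction reads in sham replicate 1, where the other sham libraries had 218 to 236. The other circRNAs of AIDA summed to 21.1 normalized junction reads in ovariectomized replicate 5, far below the 48.8 to 58.1 of replicates 1 to 4. GFM1 had 436 scaled non-junction reads in ovariectomized replicate 2 and 249 to 301 in the rest of that group. USP3 had 0.471 non-junction reads per junction read in sham replicate 2, against 0.220 to 0.288 in the others. Ovariectomized replicate 3 of GFM1, at 175 normalized junction reads, was not among the 4.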

How the results depend on the processing

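The count of circRNAs that differ between groups was 0, but 4 with at least 2 reads in 5 libraries, 30 with no filter beyond 1 read and 3 with the replicate number as a block. For hosts it was 0, but 2, 7 and 1 under the same settings. USP3 was among the 7, with a limma adjusted p of 0.0184, not read as a test of a gene chosen on these values. Leaving out a library gave 0 circRNAs each time and 0 to 1 hosts, 1 without ovariectomized replicate 5 or without sham replicate 4. Same-numbered libraries correlated at -0.11 to 0.18 in their deviations from group means, so the numbers were not taken as pairs, and the block called none of the 5 leading circRNAs. In limma, 42 circRNAs and 45 hosts had an unadjusted p under 0.05. Of the 806 circRNAs in the non-junction fit, 2 passed, but 18 when scaled by total non-junction reads and 1 by junction reads. The cause of these changes was not tested.

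Differences in non-junction reads, ovariectomized minus sham, changed sign under junction-read scaling, to -17.3 in USP3, -35.6 in AIDA and -39.5 in SNX13. That scaling gave -122 in GFM1, past 0.05, and 84.3 in MORC3, no longer past it. Scaling by trimmed means gave -0.723 in SNX13. In limma over all circRNAs SNX13 was at -0.056 and MORC3 at 0.50 on the log2 scale, neither called, and with the block at -0.040 and 0.50. Leaving out a library gave 9.69 to 31.7 for USP3, where the exact permutation p was 0.0397 without sham replicate 2, and -41.4 to 5.46 for GFM1. For MORC3 the range was 266 to 340.2, with an exact permutation p of at most 0.0238. Differences in the other circRNAs changed sign with library totals alone in USP3 (0.854) and AIDA (2.21). Without 1 library they ran from -6.18 to 0.752 in USP3, -4.07 to 7.64 in MORC3 and -6.84 to 4.37 in AIDA. For GFM1 they stayed at 3.43 to 4.82, with an exact permutation p of at most 0.0476. The reads of the other circRNAs and the non-junction reads enter the share and the ratio by which the genes were described. These exact permutation p-values are therefore not independent support for a difference. At these depths a sum of 36 reads over 10 libraries, as in GFM1, limits what can be seen. Means, shares, ratios and coefficients of variation of the 5 leading circRNAs moved by less than the spread, or by less than 1.5 times, under each alternative. The order of the coefficients of variation did change. With library totals alone USP3 was at 11.6% and AIDA at 15.2%, against 15.5% and 12.5% in the main scaling.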
